A study of Rattus norvegicus with 24 samples.

Results

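The heat shock proteins and the J-domain cochaperones that work with them were examined in the left ventricle of rats given a high oral dose of metformin, a biguanide used against type 2 diabetes. Members were the genes whose symbol on the array annotation begins with Hspa, Hspb, Hspd, Hspe, Hsph, Hsp90, Dnaja, Dnajb or Dnajc, leaving out Hspa5, Hsp90b1, Dnajb9 and Dnajc3, which belong to the endoplasmic reticulum stress response. This gave 98 of the 22037 genes on the table, made up of 66 protein-coding genes and 32 pseudogene loci, and 93 of them (62 protein-coding genes and 31 pseudogene loci) were bright enough to be tested. Dnajb7, Dnajc5g, Dnajc6, Hspa2 and the pseudogene locus Dnaja1-ps4 did not pass the filter on dim genes, and Dnaja1 and Hspa1b had no transcript cluster (the unit of the array that stands for a gene) carrying their symbol alone. Hspa1a and Hspa1b are near-identical copies, so the value called Hspa1a here may hold both.

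The animals were male RccHan Wistar rats aged 7 to 8 weeks. They received 800 mg/kg metformin or vehicle (ethanol, Kolliphor HS 15 and tap water) by gavage daily, and the hearts were taken after 1, 3 or 14 days. Each of the 6 groups (control and metformin on each day) held 4 arrays, labelled as biological replicates. The ventricular apex was used for RNA, a piece of tissue that holds cardiomyocytes together with vessels, fibroblasts and blood. Of the cardiomyocyte markers, 7 of 7 tested were bright (mean log2 intensity 13.42 to 19.85), and their score (the mean over markers of the log2 value minus the marker's mean over all arrays) ran from -0.03 to 0.03 over the arrays. The brightest of these markers hardly varied, with an SD of 0.002 for both Tnnt2 and Actc1 in the controls of day 3. This score could thus show little of any difference in cardiomyocyte content. The score of 8 erythroid markers ran from -1.74 to 1.73. That of 8 skeletal muscle markers reached 1.59 on 1 control array of day 1 (replicate 4), against -0.30 to 0.19 on the metformin arrays. All values are log2 intensities, and differences are metformin minus control on that scale unless another pair is named. In tissue RNA, fewer cells of a type and less RNA per cell cannot be told apart.

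Hsp70 proteins (the Hspa family) bind unfolded stretches of other proteins and release them in cycles driven by ATP. J-domain proteins (the Dnaja, Dnajb and Dnajc families) bring clients to Hsp70 and start ATP hydrolysis, and the Hsp110 proteins (Hspa4, Hspa4l and Hsph1) exchange the nucleotide. Hsp90 takes over partly folded clients such as kinases and steroid receptors, Hsp60 and Hsp10 (Hspd1 and Hspe1) fold proteins in the mitochondrial matrix, and the small heat shock proteins (Hspb) hold unfolding proteins in a soluble state. Several of these genes are switched on together by heat shock factor 1 when unfolded proteins accumulate, and heart muscle carries high constitutive levels of others, among them Hspb6, Hspb7 and Hspb8, because its contractile proteins are under constant load.

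Heat shock factors bind repeats of the 5-base unit nGAAn in alternating orientation, which appear as GAANNTTC or TTCNNGAA, both of which read the same on either strand. Promoter windows of 300 bases (250 before and 50 after the start of a gene), from RefSeq with build GRCr8, were on hand for 54 members. At least 1 of these letter patterns was found in 15 of the 54 (27.8%), against 15.9% of all 33469 promoter windows. It was found in 8 of 9 windows (88.9%) of the list of stress-inducible chaperone genes (Hspa1a, Hspa1b, Hspa8, Hsph1, Hsp90aa1, Hspb1, Hspd1, Hspe1, Dnaja1, Dnajb1, Dnajb4 and Hspa4l), which includes genes with no cluster of their own. The window with neither pattern was that of Hspa1a, which says only that these letters are absent from that window. For Hsp90aa1 and Dnajb4 no window was on hand. Overlapping matches that make a run of 3 alternating units were found in 4 of the 54 member windows, those of Hspa8, Hspd1, Hspe1 and Hsph1, and in 0.798% of all windows. The windows of Hspd1 and Hspe1, a pair of genes transcribed away from each other, share 211 bases, so they are not independent. The sequences below are shown for 4 inducible chaperones that carry the patterns and for Dnajb2 and Dnajb12, the members that differed between arms. Capitals mark each GAANNTTC or TTCNNGAA, adjoining and overlapping matches running together.
Hspe1 (chr9:64084077-64084376, plus strand): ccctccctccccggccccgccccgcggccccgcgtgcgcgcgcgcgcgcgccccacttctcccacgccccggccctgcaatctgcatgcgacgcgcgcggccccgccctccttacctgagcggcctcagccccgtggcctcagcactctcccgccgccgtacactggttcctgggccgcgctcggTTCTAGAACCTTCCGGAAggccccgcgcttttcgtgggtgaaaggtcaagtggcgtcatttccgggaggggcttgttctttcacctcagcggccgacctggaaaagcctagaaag
Hsph1 (chr12:10427118-10427417, plus strand): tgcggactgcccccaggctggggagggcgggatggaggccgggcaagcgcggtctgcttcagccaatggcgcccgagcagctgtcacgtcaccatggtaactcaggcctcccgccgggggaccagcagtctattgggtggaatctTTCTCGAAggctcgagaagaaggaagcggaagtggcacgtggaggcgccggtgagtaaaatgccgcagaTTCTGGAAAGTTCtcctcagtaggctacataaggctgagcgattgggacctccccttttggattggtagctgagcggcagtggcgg
Dnajb1 (chr19:41431092-41431391, minus strand): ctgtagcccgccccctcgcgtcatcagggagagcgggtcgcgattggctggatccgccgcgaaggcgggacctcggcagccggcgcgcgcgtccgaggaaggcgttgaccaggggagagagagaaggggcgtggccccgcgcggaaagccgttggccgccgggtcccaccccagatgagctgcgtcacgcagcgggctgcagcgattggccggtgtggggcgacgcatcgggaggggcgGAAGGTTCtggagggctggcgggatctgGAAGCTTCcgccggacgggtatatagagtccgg
Hspa8 (chr8:50080264-50080563, plus strand): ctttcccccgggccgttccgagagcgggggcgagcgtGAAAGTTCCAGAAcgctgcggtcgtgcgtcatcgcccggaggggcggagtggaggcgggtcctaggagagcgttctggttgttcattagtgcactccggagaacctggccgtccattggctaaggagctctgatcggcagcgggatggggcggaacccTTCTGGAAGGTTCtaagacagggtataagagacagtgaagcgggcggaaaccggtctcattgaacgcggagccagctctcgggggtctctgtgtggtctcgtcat
Dnajb2 (chr9:84179518-84179817, plus strand): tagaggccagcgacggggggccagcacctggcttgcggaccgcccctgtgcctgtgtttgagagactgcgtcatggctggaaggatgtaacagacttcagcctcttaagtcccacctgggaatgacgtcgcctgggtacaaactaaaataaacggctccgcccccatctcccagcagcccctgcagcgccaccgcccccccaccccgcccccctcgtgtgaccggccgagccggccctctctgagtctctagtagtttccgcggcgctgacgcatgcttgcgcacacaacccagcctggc
Dnajb12 (chr20:28370930-28371229, plus strand): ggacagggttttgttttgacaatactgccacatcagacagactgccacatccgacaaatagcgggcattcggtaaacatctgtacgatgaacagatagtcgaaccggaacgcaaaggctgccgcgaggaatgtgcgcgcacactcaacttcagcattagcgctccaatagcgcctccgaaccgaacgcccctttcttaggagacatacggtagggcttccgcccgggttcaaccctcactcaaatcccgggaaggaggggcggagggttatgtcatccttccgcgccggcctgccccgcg
In Hspe1 the matches lie 65, 60 and 55 bases before the gene start, in Hsph1 105, 36 and 31 bases before it, and in Hspa8 as pairs 213 and 208 and then 55 and 50 bases before it. In Dnajb1 they lie 11 bases before and 17 bases after the start. The windows of Dnajb2 and Dnajb12 hold neither pattern, which says only that these letters are absent from these windows.

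Mean log2 intensities over the 24 arrays show which members gave a strong signal in this tissue. Intensities of different clusters depend on their probes, so they are not ranked against each other. Among the Hsp70 genes the mean was 19.69 for Hspa8 and 17.82 for the mitochondrial Hspa9, and 3.70 for the untested Hspa2, a gene of the testis. The Hsp90 genes Hsp90ab1 and Hsp90aa1 had means of 15.50 and 15.22, the mitochondrial Hspd1 and Hspe1 15.49 and 15.41, and the muscle genes Hspb7 and Hspb6 15.75 and 15.08. Hspb9 had a mean of 4.81 and Hspd1l2 one of 5.19, near the array medians. The Hsp110 genes had means of 13.63 (Hspa4), 10.84 (Hsph1) and 8.33 (Hspa4l). Among J-domain genes the means were 12.26 for Dnaja4, 10.83 for Dnaja3, 9.07 for Dnaja2, 11.75 for Dnajb4, 8.77 for Dnajb12, 13.46 for Dnajc19, a part of the mitochondrial import motor, and 11.08 for Dnajc13, an endosomal protein. The untested Dnajb7 and Dnajc5g had means of 3.90 and 3.60. The median SD within groups was 0.18 over the tested members and 0.15 over all genes tested.

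Across the 3 days, 2 J-domain genes were lower in metformin-treated hearts, Dnajb12 and Dnajb2, and no member was higher past the threshold. The call is an adjusted p under 0.05 in limma, a linear model with moderated variances fitted to all 24 arrays, with Benjamini-Hochberg adjustment over all 16031 genes tested. The 2 calls among 93 members stand against 4.42% of all genes called in this comparison (3.77% lower and 0.649% higher), and 14 members against 18.3% of all genes had an unadjusted p under 0.05. The share of members that differed was thus no larger than the background share. The median difference was 0.02 over the members and -0.01 over all genes, and 59 of the 93 members were on the higher side, against 47.2% of all genes. After centring each array on its median 38 of the 93 were, with a median of -0.03 against -0.06 over all genes.

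**Figure D1:**
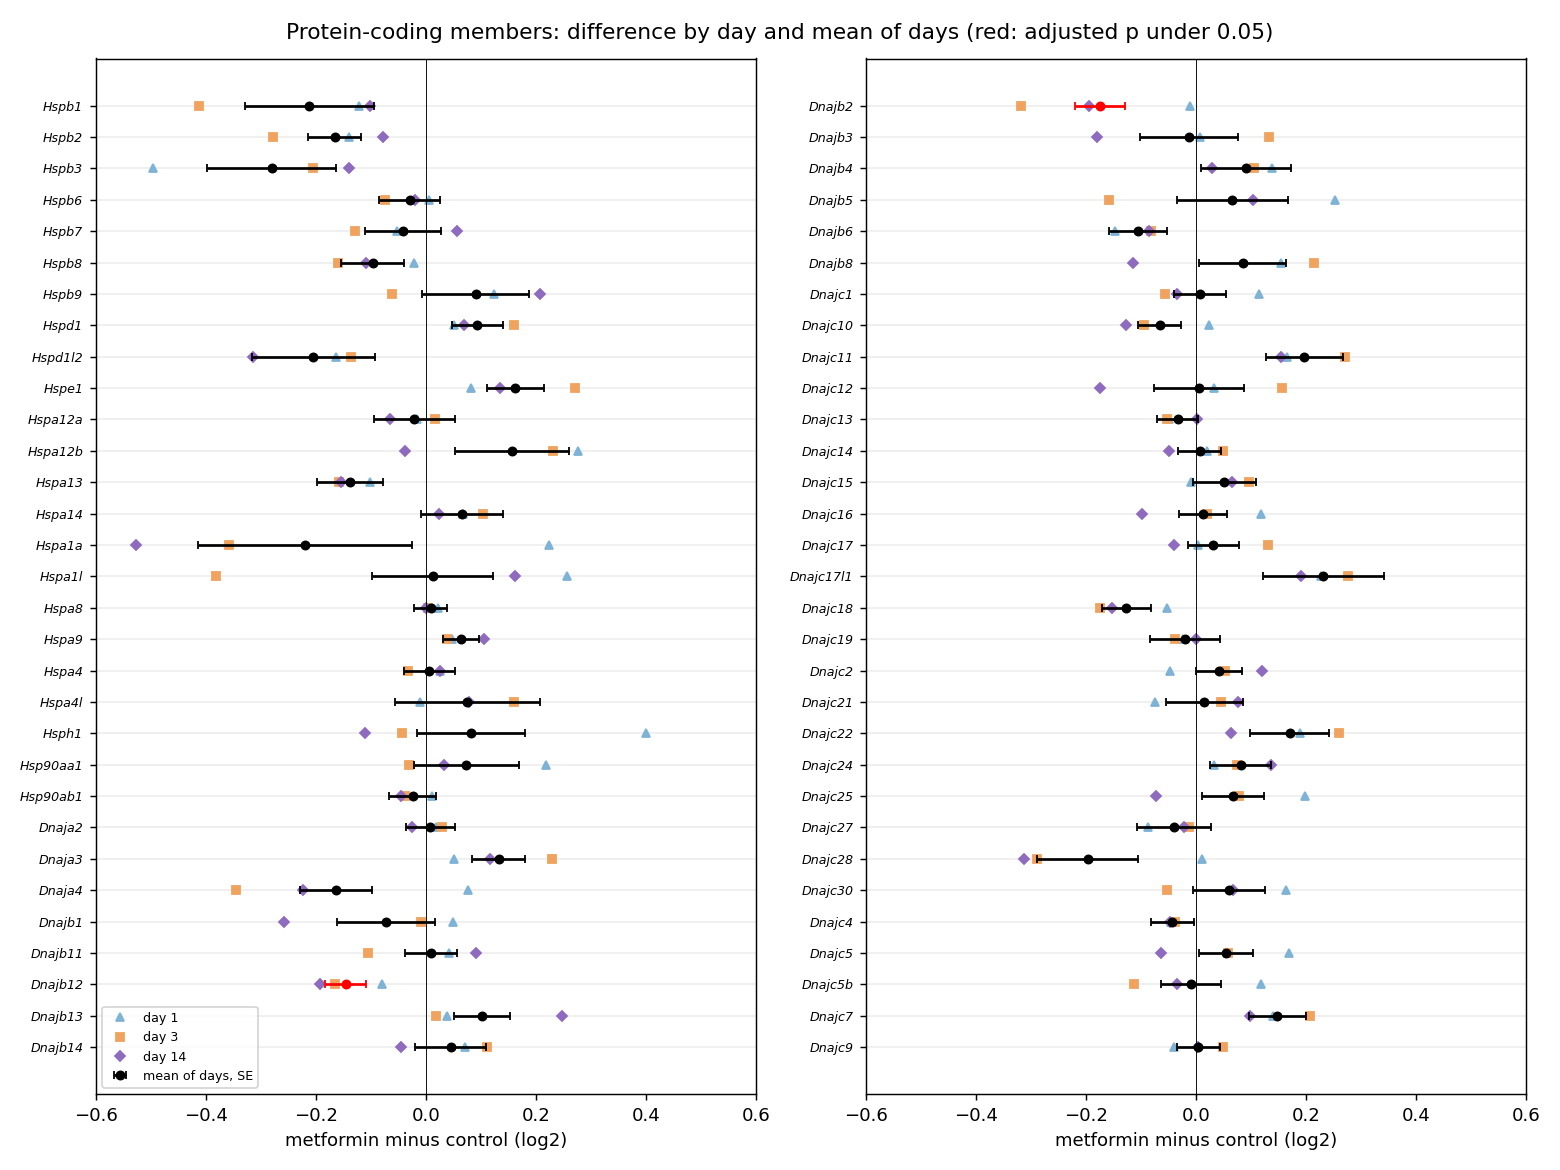
Metformin minus control (log2) for the 62 tested protein-coding members, by day (coloured markers) and as the mean of days with its SE (black, or red where the adjusted p is under 0.05). Dnajb12 (-0.15) and Dnajb2 (-0.17) are the members in red, and the day values of Hspa1a run from 0.22 on day 1 to -0.53 on day 14.

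Dnajb2 encodes a J protein with ubiquitin-binding motifs that passes Hsp70 clients to the proteasome, known best from neurons. It read 7.52, 7.48, 7.52 and 7.42 in the control hearts of day 1 and 7.34, 7.38, 7.50 and 7.67 in the metformin hearts, 2 ranges that overlap. On day 3 the control hearts read 7.63, 7.63, 7.75 and 7.60 and the metformin hearts 7.24, 7.40, 7.16 and 7.54. All metformin values of that day lay below all control values. On day 14 the values were 7.88, 7.87, 7.69 and 7.68 in controls and 7.62, 7.60, 7.54 and 7.58 with metformin, again without overlap. The difference was -0.01 on day 1, -0.32 on day 3 (SE 0.08, adjusted p = 0.0772 in limma) and -0.19 on day 14 (SE 0.08, adjusted p = 0.294). Averaged over the days it was -0.17 (SE 0.05, adjusted p = 0.0317). The test of whether the effect changed with the day gave an adjusted p of 0.993, so a difference between day 1 and the later days was not shown.

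Dnajb12 encodes a J protein of the endoplasmic reticulum membrane that, in human cells, works with cytosolic Hsp70 in the degradation of misfolded membrane proteins. Its control values were 8.90, 8.71, 8.87 and 8.75 on day 1 against 8.76, 8.71, 8.76 and 8.68 with metformin. The controls were much tighter on day 3, at 8.81, 8.84, 8.83 and 8.81, against 8.60, 8.71, 8.72 and 8.59. On day 14 the values were 8.89, 8.85, 9.06 and 8.82 against 8.58, 8.76, 8.83 and 8.69. The arms did not overlap on day 3 and overlapped on the other days. The mean difference was -0.15 (SE 0.04, adjusted p = 0.0264 in limma), with -0.08 on day 1, -0.16 on day 3 and -0.19 on day 14.

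Both calls depended on the setting. After a second quantile normalization the adjusted p was 0.210 for Dnajb12 and 0.129 for Dnajb2, and after cyclic loess it was 0.158 and 0.109, with both genes still on the lower side. Leaving out single arrays ended the call for Dnajb12 in 3 of 24 cases and for Dnajb2 in 8 of 24, with adjusted p up to 0.0522 and 0.0600. In the same comparison 8 of 8 erythroid markers were lower with metformin in the mean of days (median -0.63), 0 of 8 past the threshold. With the erythroid score as a covariate the difference was -0.14 for Dnajb12 (adjusted p = 0.0876) and -0.18 for Dnajb2 (adjusted p = 0.0709). Of 15 circadian clock genes 7 were higher and 8 lower (median -0.06), and 2 were called, Per1 at -0.62 (adjusted p = 0.00519) and Bmal1 at -0.68 (adjusted p = 0.00821). With a clock score as a covariate Dnajb12 differed by -0.16 (adjusted p = 0.0430) and Dnajb2 by -0.14 (adjusted p = 0.143). Over the 12 other settings the difference ran from -0.20 to -0.10 for Dnajb12 and from -0.22 to -0.14 for Dnajb2.

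Hspb2 and Hspe1 came next in the order of p and missed the threshold. Hspb2 encodes a small heat shock protein of striated muscle that binds the myotonic dystrophy kinase. Its values on day 3 were 7.58, 7.87, 7.79 and 7.70 in controls and 7.27, 7.50, 7.43 and 7.62 with metformin, with 1 metformin heart inside the control range. Its mean difference over the days was -0.17 (SE 0.05, adjusted p = 0.0548). Hspe1, the lid of the mitochondrial chaperonin, read 15.26, 15.35, 15.25 and 15.33 in the controls of day 3 and 15.55, 15.52, 15.42 and 15.78 with metformin, all above the controls. Its difference was 0.27 on day 3 (SE 0.09, adjusted p = 0.199) and 0.16 in the mean of days (SE 0.05, adjusted p = 0.0790). Dnajc7, a cochaperone that binds both Hsp70 and Hsp90, differed by 0.15 (SE 0.05, adjusted p = 0.111).

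**Figure D2:**
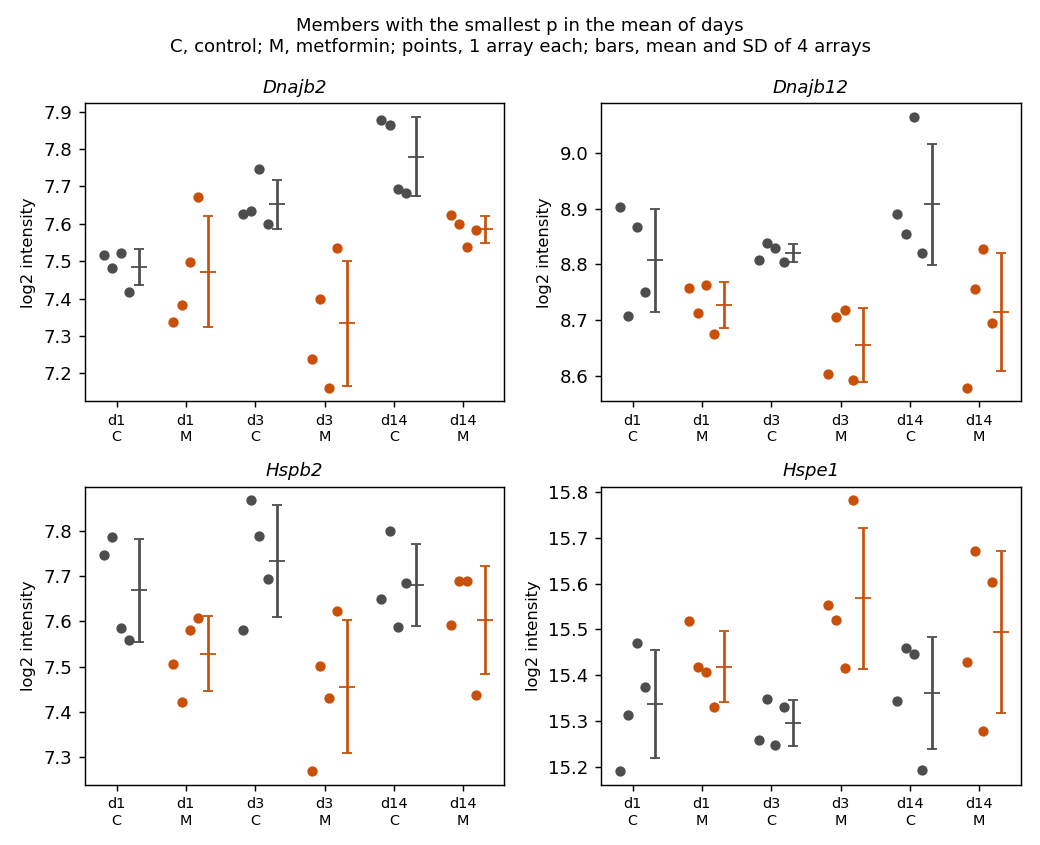
Log2 intensity of Dnajb2, Dnajb12, Hspb2 and Hspe1 on each array, in 6 groups (d, day; C, control; M, metformin), with the mean and SD of 4 arrays beside the points. On day 3 the metformin arrays lie below all control arrays for Dnajb2 and Dnajb12 and above them for Hspe1.

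After 1 day no member was called, as was the case for every other gene (0% of 16031). An unadjusted p under 0.05 was reached by 2 of 93 members against 6.72% of all genes. These were Hspb3, a small heat shock protein that pairs with Hspb2 in muscle, and Hsph1. Hspb3 read 9.82, 9.90, 9.56 and 9.81 in controls and 9.60, 9.17, 8.99 and 9.36 with metformin, a difference of -0.50 (SE 0.20, adjusted p = 0.666 in limma). Hsph1 read 10.37, 10.21, 10.58 and 10.90 in controls against 10.63, 11.21, 10.87 and 10.95, a difference of 0.40 (SE 0.17, adjusted p = 0.686). The arms overlapped for both genes. The next smallest p belonged to Dnajc25, at 0.20 (SE 0.10, adjusted p = 0.762), and Dnajc5, the cysteine string protein of secretory vesicles, at 0.17 (SE 0.08, adjusted p = 0.764). Of the 93 members, 2 had arms that did not overlap, against 4.56% of all genes. The members' median difference was 0.02. After centring each array on its median it was -0.02, against -0.04 over all genes.

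On day 3 none of the 93 members was called, against 0.474% of all genes (0.0499% higher and 0.424% lower), and 10 had an unadjusted p under 0.05 against 11.2%. The arms did not overlap for 6 members (6.37% of all genes): Dnajb2, Dnajb12 and Dnaja4 were lower with metformin and Hspe1, Dnaja3 and Dnajc11 higher, Dnajc11 and Dnaja3 being named after their values were seen. Dnaja4, a cytosolic J protein, read 12.45, 12.46, 12.25 and 12.41 in controls and 12.21, 12.08, 11.71 and 12.19 with metformin. Its difference was -0.35 (SE 0.11, adjusted p = 0.200 in limma). Dnaja3, a mitochondrial J protein whose loss in mice leads to dilated cardiomyopathy, read 10.78, 10.82, 10.54 and 10.73 against 11.00, 10.83, 10.91 and 11.05, a difference of 0.23 (adjusted p = 0.272). Dnajc11, a protein of the mitochondrial outer membrane linked to cristae structure, differed by 0.27 (adjusted p = 0.395).

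The 7 small heat shock protein genes were all on the lower side on day 3, against 51.6% of all genes, under each of the 4 normalizations (6 of 7 where the fit also held the clock score), with a median difference of -0.16, a range from -0.41 to -0.06 and 0 called (1 with an unadjusted p under 0.05). On that day the 6 endothelial markers were all on the higher side (median 0.31) and the 8 erythroid markers all on the lower (median -0.55), with 0 called in either list. With the erythroid score as a covariate the 7 genes were still all on the lower side, with a median of -0.13, and the part of endothelial cells was not tested. The lowest was Hspb1, the Hsp27 of actin dynamics, at 7.56, 7.51, 8.35 and 7.79 in controls and 7.55, 7.47, 7.09 and 7.46 with metformin. Its difference of -0.41 (SE 0.20) had an adjusted p of 0.460, and the third control array, at 8.35, stood well above the rest. The heart-enriched Hspb7 (-0.13) and Hspb6 (-0.08) differed by about their SE of 0.12 and 0.10. Hspb8, a partner of Bag3 in the removal of damaged filament proteins, differed by -0.16 (SE 0.10). In the mean of days 6 of the 7 were on the lower side, against 52.8% of all genes, with a median of -0.10, and 5 of 7 were after a second quantile normalization or cyclic loess.

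Of the 3 tested Hspd and Hspe genes, 2 were on the higher side and Hspd1l2 on the lower, both on day 3 and in the mean of days (-0.14 and -0.20 for Hspd1l2). Hspd1, the mitochondrial Hsp60, differed by 0.16 on day 3 (SE 0.08, adjusted p = 0.478 in limma) and by 0.09 in the mean of days (adjusted p = 0.293). Hspa9, the mitochondrial Hsp70, differed by 0.06 in the mean of days (SE 0.03, adjusted p = 0.298). None of these passed the threshold. The Hspa9 mean of 17.82 lies above that of Tnnt2 (17.57 in the controls of day 3), which hardly varied. Whether the Hspa9 values are compressed was not tested.

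After 14 days the count in limma was again 0 of 93 members, against 0.281% of all genes (0.0125% higher and 0.268% lower), with 4 at an unadjusted p under 0.05 against 12.7%. Arms without overlap were seen for 3 members (6.13% of all genes): Dnajb2, lower, and Dnajb13 and Hspa6l-ps1, higher. Dnajb13, a J protein of sperm tails and cilia, read 4.47, 4.80, 4.79 and 4.70 in controls and 4.97, 4.94, 4.84 and 5.02 with metformin, close to the array medians of 4.68 to 4.95. Its difference was 0.25 (SE 0.09, adjusted p = 0.233 in limma). The pseudogene locus Hspa6l-ps1, as dim, differed by 0.21 (adjusted p = 0.240). Dnajc28 was among the 5 members of smallest p, at -0.31 (SE 0.16, adjusted p = 0.430). The median over members was -0.02, as over all genes, and it was 0.02 after a second quantile normalization, 0.03 after cyclic loess and -0.12 after centring each array on its median, which moved the median of all genes to -0.12 as well.

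**Figure D3:**
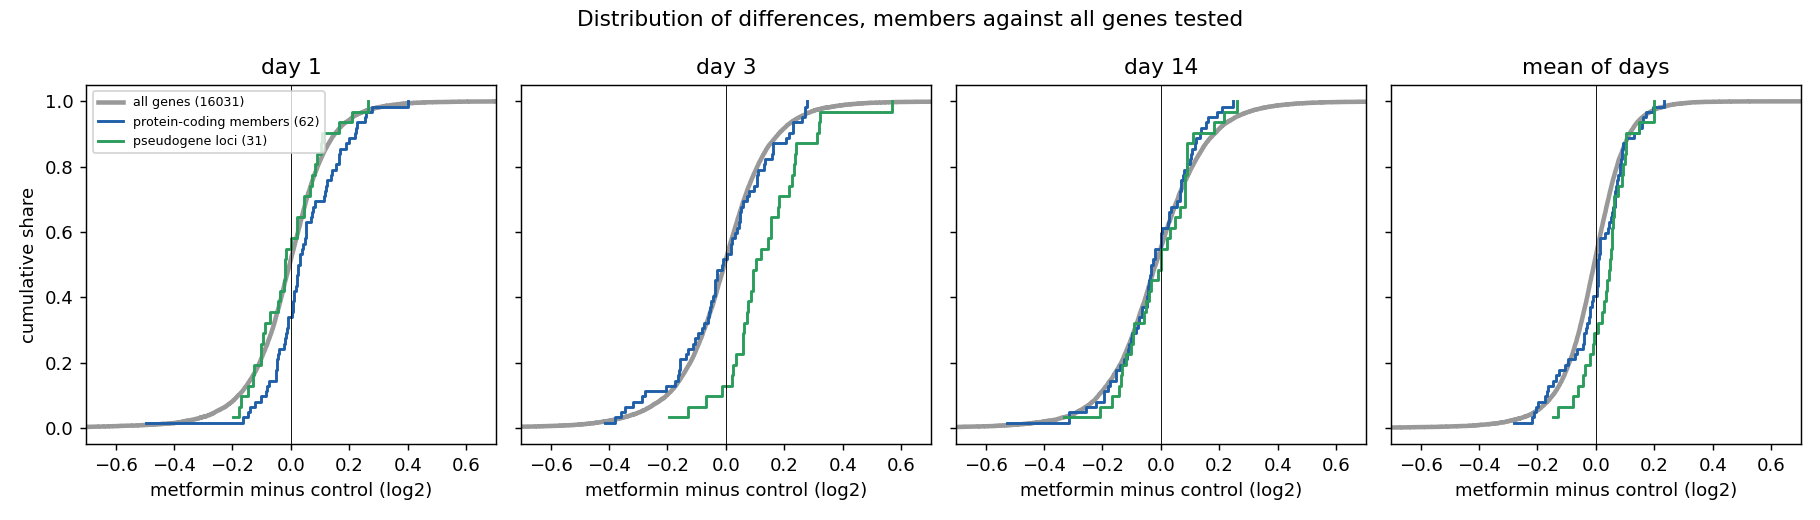
Cumulative share of genes (vertical) by metformin minus control on the log2 scale (horizontal), for all 16031 genes, the 62 protein-coding members and the 31 pseudogene loci, in 4 panels. Of the pseudogene loci, 27 of 31 lie on the higher side on day 3 (48.4% of all genes) and 22 of 31 in the mean of days (47.2%). Of the protein-coding members, 41 of 62 lie on the higher side on day 1 (48.4% of all genes). The pseudogene count in the mean of days was 24 after a second quantile normalization and 23 after cyclic loess. It was 15 after centring each array on its median. On day 1 the count of all 93 members on the higher side was 55 as deposited, and 67, 63 and 40 in the same order. Centring moved the median of all genes to -0.04 on day 1 and -0.06 in the mean of days.

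The stress-inducible chaperones did not differ between the arms past the threshold on any day. Hspa1a, the inducible Hsp70, read 4.76, 5.33, 5.95 and 5.36 in the controls of day 1 and 5.45, 5.87, 5.60 and 5.36 with metformin. On day 3 it read 5.57, 5.41, 6.94 and 5.56 against 5.95, 5.49, 4.94 and 5.67, the third control heart standing far above the others. On day 14 the controls spread from 5.42 to 7.22 (6.85, 6.63, 7.22 and 5.42), while the metformin hearts lay together at 6.05, 5.92, 5.99 and 6.06. The SD of Hspa1a on day 14 was thus 0.78 in controls and 0.06 with metformin (n = 4 each); this difference in spread was noticed in the data and was not tested. The differences were 0.22, -0.36 and -0.53 on the 3 days, with an SE of 0.34 and adjusted p between 0.551 and 0.972 in limma. A second cluster of Hspa1a gave 0.42, -0.26 and -0.14.

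Hsp90aa1, the inducible cytosolic Hsp90, read 14.96, 14.91, 15.15 and 15.07 in the controls of day 1 against 15.05, 15.55, 14.99 and 15.36. On day 3 it read 14.98, 14.85, 15.69 and 15.07 against 15.29, 15.08, 14.81 and 15.29. On day 14 it read 15.40, 15.50, 15.68 and 14.98 against 15.32, 15.57, 15.37 and 15.43. The arms overlapped on every day, and the differences of 0.22, -0.03 and 0.03 had an SE of 0.17. The other cytosolic Hsp90 gene, the mostly constitutive Hsp90ab1, was within 0.05 of 0 on every day. Dnajb1, the main Hsp70 partner in the heat shock response, differed by 0.05, -0.01 and -0.26 (SE 0.16), Dnajb4 by 0.14, 0.11 and 0.03 (SE 0.14), and Hspa4l by -0.01, 0.16 and 0.08 (SE 0.23). Hspa8, the constitutive Hsp70, stayed between 19.56 and 19.79 on all arrays. Its mean of 19.69 lies near the ceiling of the scale at 19.93. Actc1, at 19.85 in the controls of day 3, hardly varied there (SD 0.002). Whether Hspa8 is compressed in the same way was not tested. Its differences of at most 0.02 (SE 0.05) thus cannot be read as an unchanged transcript. A second cluster of Hspa8, at a mean of 8.35, gave -0.03, 0.19 and 0.01 on the 3 days, and its r with the first over the within-group deviations was 0.32. By their identifiers the first is unmapped and the second lies on another chromosome than the Hspa8 gene, so neither is placed at the gene. The correlations of Hspa8 given further on use the first cluster, near the ceiling.

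**Figure D4:**
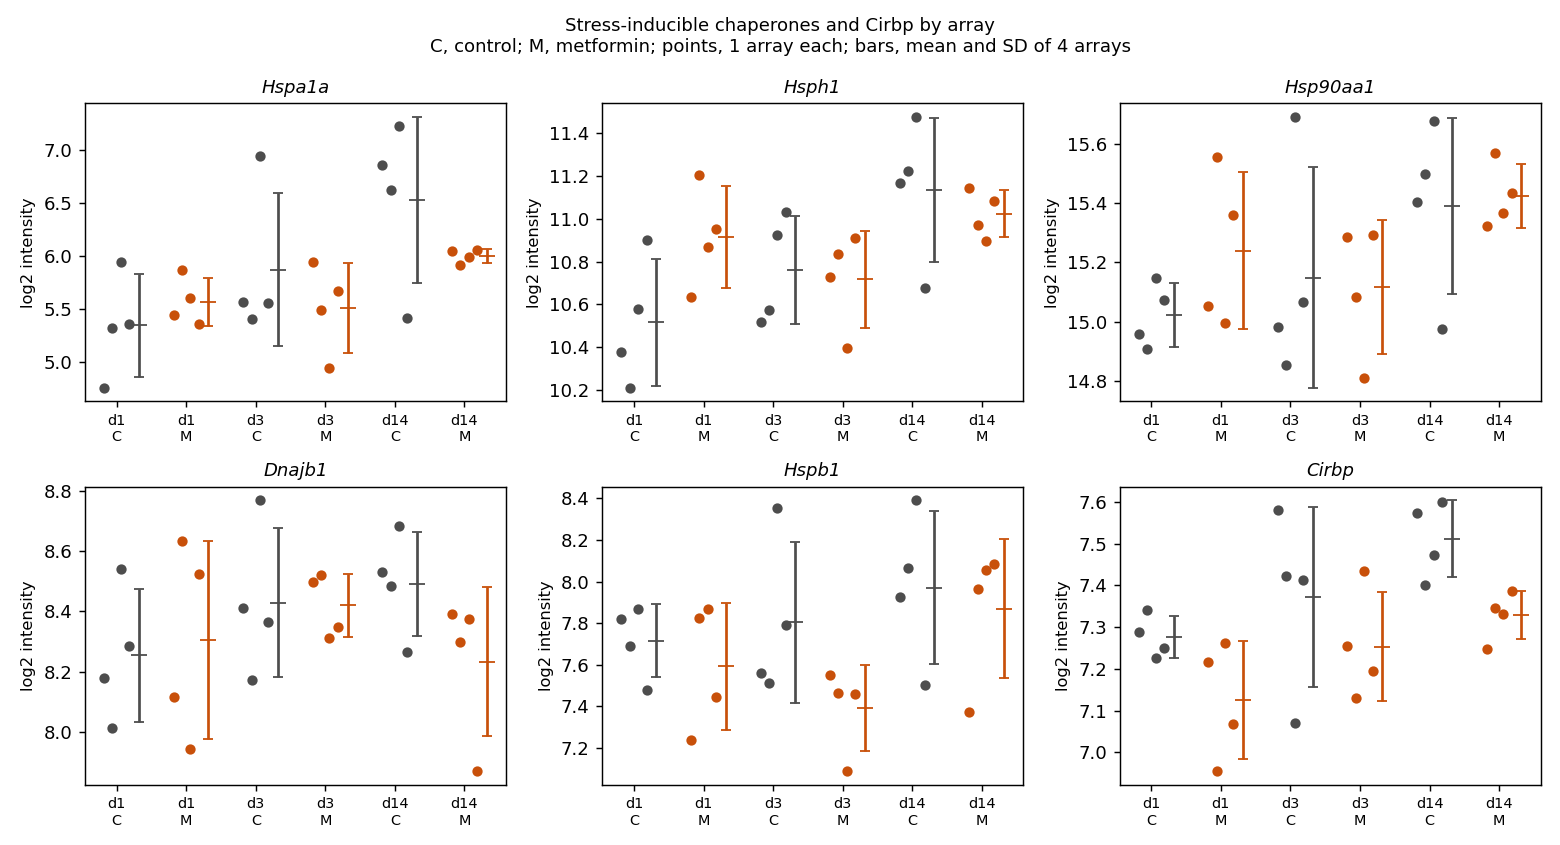
Log2 intensity of 5 stress-inducible chaperones and of Cirbp on each array, by group (d, day; C, control; M, metformin), with the mean and SD of 4 arrays. The third control array of day 3 is high for Hspa1a (6.94), Hsp90aa1 (15.69) and Hspb1 (8.35) and low for Cirbp (7.07).

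No member passed the threshold between days in vehicle-treated hearts. The control mean of day 14 lay above that of day 1 by 1.18 for Hspa1a (F test over the 3 days, adjusted p = 0.394 in limma), by 0.62 for Hsph1 (adjusted p = 0.346), by 0.61 for Dnajb3 (adjusted p = 0.262), by 0.32 for Hspb8 (adjusted p = 0.420) and by 0.30 for Dnajb2 (adjusted p = 0.336). The share of all genes called was 0.162%, and 9 members had an unadjusted p under 0.05 against 8% of all genes. On day 14, 79 of 93 members were above their day 1 level in controls (77 to 88 under the other normalizations), with a median of 0.11, against 8352 of 16031 genes. In the same comparison 8 of 8 erythroid markers were lower on day 14, by a median of -1.43, and the control array of day 1 with a skeletal muscle score of 1.59 is in it. With the erythroid score as a covariate the number of all genes called among control days went from 26 to 0, with 0 members called in either fit. The part of blood or skeletal muscle in the members' levels was not tested. In metformin hearts it was 72 of 93 (70 to 76 under the other normalizations), with a median of 0.11, against 8004 of 16031 genes. Among metformin days no member was called (0.212% of all genes), with 10 of 93 at an unadjusted p under 0.05 (11.2%), and Hspa4l, an Hsp110 protein, had 0.44 on day 3 and 0.70 on day 14 over day 1 (adjusted p = 0.325). Dnajb11, a J protein of the endoplasmic reticulum lumen, had -0.20 on day 3 and 0.05 on day 14 (adjusted p = 0.316). The labels tie each day to its own animals, so age, days of gavage and day of necropsy cannot be told apart.

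The treatment effect did not change with the day for any member past the threshold, nor for any gene (0% of 16031). An unadjusted p under 0.05 was reached by 3 of 93 members, Hspa6l-ps1, Dnajb2 and Dnaja4, against 4.95% of all genes. Hspa1l, an Hsp70 best known from the testis, was among the next, with differences of 0.26, -0.38 and 0.16 on the 3 days (adjusted p = 0.993 in limma).

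Within the groups, 11 pairs among 6 of the inducible chaperones (Hspa1a, Hspa8, Hsph1, Hsp90aa1, Hspb1 and Dnajb1) were correlated from heart to heart. Each array's deviation from its group mean was compared between genes over the 24 arrays, with p-values from permutation within groups and Benjamini-Hochberg adjustment over 65 pairs. Of 45 pairs among 10 inducible members, 42 had a positive Pearson's r (median 0.34) and 11 had an adjusted p under 0.05, all of them positive and all among those 6 genes. Pairs such as Hspb1 and Dnajb1 (r = 0.33), both among the 6, missed the threshold. By the adjusted permutation p of Spearman's rho, Hspa1a with Dnajb1 (0.0549) and Hspa8 with Hsph1 (0.0816) and Hspb1 (0.0806) also missed it. Of the 11, only Hspa1a with Hsph1 and Hsph1 with Hsp90aa1 had a smaller r in controls than with metformin. For Hspa1a and Dnajb1 r was 0.86 in controls and 0.20 with metformin, and the difference between arms was not tested. Hspd1, Hspe1, Dnajb4 and Hspa4l had no pair past the threshold, with r = 0.02 for Hsph1 and Dnajb4, for example. The closest pair was Hspa1a and Hsp90aa1, with r = 0.84 (permutation p = 0.000360, adjusted p = 0.0121), Spearman's rho = 0.76 (permutation p = 0.00122, adjusted p = 0.0159) and r = 0.71 without the 2 arrays farthest from the median. Hsp90aa1 and Dnajb1 had r = 0.73 (permutation p = 0.000450, adjusted p = 0.0121) with rho = 0.71 (permutation p = 0.00101), and r = 0.66 without 2 arrays. Hsp90aa1 and Hsph1 had r = 0.71 (permutation p = 0.000880, adjusted p = 0.0121) with rho = 0.71 (permutation p = 0.000870), and r = 0.61 without 2 arrays. The mitochondrial pair Hspd1 and Hspe1 had r = 0.50 (0.39 to 0.80 under the other normalizations). The r of Hspd1 with the 8 other members ran from -0.26 (Hspb1) to 0.25 (Hsph1 and Hsp90aa1) and that of Hspe1 from -0.06 (Dnajb1) to 0.42 (Hsph1), with none past the threshold. With Hspa8 these values turned on the normalization, at 0.03 for Hspd1 and 0.07 for Hspe1 as deposited and at 0.80 and 0.73 after cyclic loess. Of the 11 pairs, Hspa8 with Hspb1 had r = 0.60 as deposited and 0.26 to 0.57 under the other normalizations. Hspa8 with Dnajb1 had 0.67 as deposited and 0.36 to 0.84. Hspa8 with Hsph1 had 0.62 and 0.52 to 0.53, and with Hsp90aa1 0.70 and 0.55 to 0.66. No p-values were computed under the other normalizations. All pairs rest on the same 24 arrays and their shared normalization. The count of positive pairs was 42 or 43 of 45 under the other normalizations. Pairs of genes outside the list were not computed for comparison, so the share of positive or called pairs among all genes is not known.

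Cirbp and Rbm3, RNA-binding proteins that rise when cells are cooled, were compared with the same members. Their r with the 10 inducible members was negative in 20 of 20 pairs (-0.79 to -0.05), and 5 pairs had an adjusted p under 0.05, 4 of them with Cirbp (Hspa1a, Hsph1, Hsp90aa1 and Dnajb1) and 1 with Rbm3 (Hsph1, r = -0.57). By the adjusted permutation p of rho, Hspa1a with Cirbp and Hsph1 with Rbm3 missed the threshold (0.0719 each). The r of Hsph1 with Rbm3 was -0.33 after centring each array on its median. Under the other normalizations 15 to 18 of the 20 were negative. Cirbp and Rbm3 were not compared with genes outside the inducible list, so the share of negative pairs among all genes is not known. Rbm3 and Hspa8 had r = -0.05 as deposited and 0.46 after centring each array on its median. For Cirbp with Hsp90aa1 r was -0.79 (permutation p = 0.00149, adjusted p = 0.0121), rho was -0.75 (permutation p = 0.00172), and r was -0.71 without 2 arrays. For Cirbp with Hsph1 r was -0.64 (permutation p = 0.00123, adjusted p = 0.0121), rho was -0.75 (permutation p = 0.000110), and r was -0.58 without 2 arrays. The size of some of these depended on the normalization, with Cirbp and Hsp90aa1 at -0.47 after a second quantile normalization and Cirbp and Dnajb1 at -0.71 as deposited but -0.30 after centring each array on its median. Cirbp itself read 7.57, 7.40, 7.47 and 7.60 in the controls of day 14 and 7.25, 7.35, 7.33 and 7.39 with metformin, without overlap, a difference of -0.18 (SE 0.09, adjusted p = 0.415 in limma), and Rbm3 differed by -0.32 (SE 0.11, adjusted p = 0.227).

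**Figure D5:**
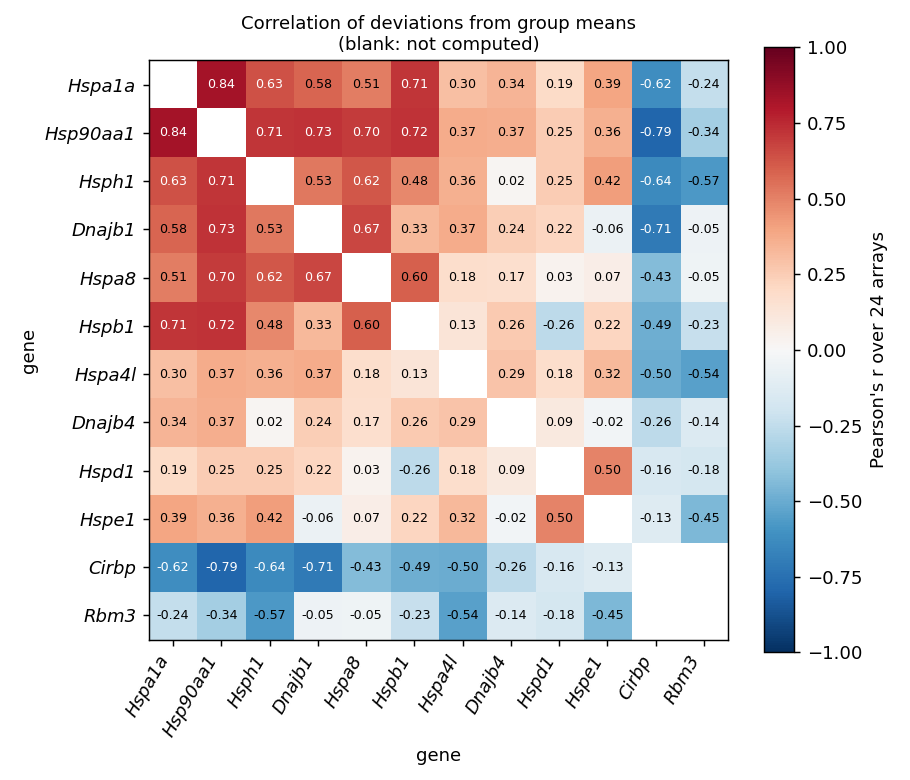
Pearson's r between within-group deviations over 24 arrays for 10 inducible chaperones, Cirbp and Rbm3 (blue negative, red positive, blank not computed). The block of Hspa1a, Hsp90aa1, Hsph1, Dnajb1, Hspa8 and Hspb1 is positive throughout, and both cold-inducible genes are negative against each chaperone in the deposited values, though for 15 to 18 of 20 pairs under other normalizations.

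The 32 pseudogene loci were copies of Hspa8, Hsp90aa1, Hsp90ab1, Hspd1 and Dnajb6 for the most part. Signal at such a locus and at its parent cannot be told apart where probes match both. Of 29 loci with a named parent on the table, 28 had a positive r with the parent over the within-group deviations (0.07 for Hspa8-ps17, for example), and 12 had an adjusted p under 0.05 over the 29 pairs. Hsp90aa1-ps16 and Hsp90aa1 had r = 0.88 and rho = 0.91, both with a permutation p of 1e-05, the smallest that 100000 permutations can give, and r = 0.86 without 2 arrays. Hspa8-ps12, at a mean of 18.38, had r = 0.77 with Hspa8 (permutation p = 0.000370, adjusted p = 0.00179) and rho = 0.72 (permutation p = 0.000710), and r = 0.63 without 2 arrays. The 3 Hspd1 loci had r between 0.15 and 0.34 with none past the threshold. The loci were not compared with genes other than their parents, so the share of positive pairs among all genes is not known.

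On day 3, 27 of 31 pseudogene loci were on the higher side with metformin, and 24 to 27 under the other normalizations, against 48.4% of all genes, with a median of 0.10 and 0 called (1 with an unadjusted p under 0.05). Hspd1-ps4 was the highest, at 10.75, 11.15, 10.45 and 10.26 in controls and 11.45, 11.03, 11.31 and 11.10 with metformin, a difference of 0.57 (SE 0.19, adjusted p = 0.200 in limma). The arms overlapped through 1 control heart. The loci share parents and are not independent of each other. With the erythroid score as a covariate 25 of 31 were on the higher side, with a median of 0.07. On day 1 it was 14 of 31 and on day 14 15 of 31 on the higher side, the latter being 21 after a second quantile normalization or cyclic loess and 4 after centring each array on its median.

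Other genes of the chaperone network were counted from lists of their own. The cytosolic chaperonin TRiC, which folds actin and tubulin, had 8 of 8 subunits on the higher side in the mean of days (median 0.06, 6 of 8 after centring each array on its median) with 1 called, against 47.2% of all genes higher and 4.42% called. The called subunit was Cct8 at 0.15 (SE 0.04, adjusted p = 0.0442 in limma), followed by Cct3 at 0.14 (adjusted p = 0.0645). Of 11 Hsp70 exchange factors and partners none was called in the mean of days, against 4.42% of all genes, and 6 had an unadjusted p under 0.05, against 18.3%. Tomm70, the import receptor that takes clients from Hsp70 and Hsp90, differed by 0.19 (adjusted p = 0.0796), and Stub1, the ubiquitin ligase CHIP, by -0.09 (adjusted p = 0.104). Bag1, a nucleotide exchange factor, was the single gene of this list called in the F test over metformin days, at 0.26 on day 3 and 0.44 on day 14 over day 1 (adjusted p = 0.0291), against 0.212% of all genes called there. Among control days 0 of the 11 were called, with a smallest adjusted p of 0.108 in limma. An unadjusted p under 0.05 was reached by 6 of 11 among control days (8% of all genes) and by 4 of 11 among metformin days (11.2%). Of 17 Hsp90 cochaperones, 0 were called on any day, in the mean of days or in the 3 F tests. Stip1, which links Hsp70 to Hsp90, had the smallest p on day 3, at 0.24 (SE 0.08, adjusted p = 0.199). Among 5 tested heat shock factors and regulators Hsf2 differed by -0.13 (SE 0.04, adjusted p = 0.0784) and Hsf1 by 0.09 (adjusted p = 0.279) in the mean of days, with none called. Of 9 genes of the alpha-crystallin and mitochondrial protease list and 4 tested prefoldin subunits, 0 were called in the mean of days. Cryab, the alpha-B-crystallin that lies beside Hspb2 in the genome, differed by -0.07 (SE 0.03, adjusted p = 0.265).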

How the data were processed

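The study measured gene expression in rat heart on 1-colour Affymetrix arrays, 24 in all, with groups and replicate numbers taken from the sample titles. The intensity values were deposited by the authors as 1 linear value per array and transcript cluster, and per the submitters' processing notes RMA was used, with no settings or software stated there. Each array's highest value lay between 999433 and 999974, so the scale is not the scanner's, and the rescaling step is not stated. Some very bright genes hardly varied between arrays, with an SD of 0.002 for Actc1 in the controls of day 3, for example. Such values are called compressed here, and the cause was not tested. Log2 was taken first, because the planned tests assumed a log scale. Of 68842 clusters, 23446 carried exactly 1 symbol in GEO's platform annotation, updated through the RefSeq table of GRCr8 (names only); 505 carried several and 44891 none. The brightest cluster stood for a gene, and 16031 of 22037 genes lay above the array median on at least 4 arrays. Array medians ran from 4.68 to 4.95 (log2), and the number of arrays limits the precision.

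Differences were tested with limma 3.58.1 in R 4.3.3 (1 mean per group, all 24 arrays, Benjamini-Hochberg over the 16031 genes, called at an adjusted p under 0.05), and every adjusted p that names no other test is limma's. SE is that of the moderated fit, and adjusted p values of days are from F tests. Correlations used 100000 permutations within groups. The procedure was checked on simulated data. Members and lists were chosen with earlier results of these data known. Named are all called members, the 5 members of smallest p in each of 7 comparisons, the inducible list, the 2 brightest and the dimmest member of each class for levels, and up to 3 genes of smallest p per list; others are marked as named after their values were seen. Alternatives covered normalization, filter, cluster choice, variance model, array weights, samples in the fit, a replicate block, leaving out each array, and covariates for blood, skeletal muscle and clock; the other normalizations of correlations and the count of protein-coding members alone were added after seeing the data.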

Additional observations from a re-analysis of the deposited data

Results flagged for a closer look

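Of 156 groups of 4 arrays examined (26 members in 6 groups), 3 held an array far from the other 3 by Dixon's test at the 95% level, where chance alone marks about 1 in 20 groups. Hspa1a read 6.94 in the third control heart of day 3, against 5.41 to 5.57 in the others of that group. Hspa8 read 19.56 in the second control heart of day 1, against 19.68 to 19.70, near the ceiling of the scale. Dnajb3 read 5.09 in the same heart, against 4.87 to 4.88. The part of any property of these hearts in these values was not tested.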

How the results depend on the processing

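No called difference reversed. Over 99 comparisons of named members and their alternative settings (3595 values), 3503 kept their side of the threshold and, outside the F tests, their direction. Of the rest, 20 lost a call, 13 gained a call and 59 uncalled differences turned sign. The F tests carry no direction and were counted by the threshold alone. Most of the 3503 were uncalled in both fits, 2 of the 99 comparisons being called as reported. The number of members called in the mean of days (2 as reported) was 4 after centring arrays on their median and with array weights, 1 after cyclic loess, 1 without the filter on dim genes and 0 with the erythroid score as a covariate. With the replicate number within day as a block it was 1, Dnajb2 having an adjusted p of 0.103; the numbers do not pair the animals (12 pairs, correlations -0.15 to 0.11), and the F tests over control or metformin days could not be fitted with the block. Leaving out 1 array at a time gave 0 to 4 members in the mean of days (4 without metformin replicate 3 of day 14; 3 without control replicate 4 of day 1 or 1 of day 3, or metformin replicate 4 of day 14; 0 without control replicate 1 of day 1; 1 without control replicate 3 of day 1 or 1 or 2 of day 14, or metformin replicate 1, 2 or 4 of day 1 or 1 or 3 of day 3), 0 to 1 on day 3 (Dnajb2, without metformin replicate 4 of that day) and 0 to 0 in the other comparisons. Their median difference then ran from -0.02 to 0.06 on day 1, 0.01 to 0.06 on day 3, -0.03 to 0.01 on day 14 and 0.01 to 0.04 in the mean. Centring moved the members' median of day 14 to -0.12, and that of all genes to -0.12 as well. Besides Dnajb12 and Dnajb2, other settings called Hspb2 (7 settings), Dnajc7 (4), Dnajc11 (3) and Dnaja3, Dnaja4 and Hspe1 (1 each). All-gene calls in the mean of days (708, of which 104 higher) ran from 320 with the erythroid score to 903 with centring (25 higher) and were 384 after a second quantile normalization (119 higher), 438 after cyclic loess (99 higher) and 378 with the block (37 higher). On day 3 (76 calls) they were 42 after a second quantile normalization or centring, 114 with array weights, and 29 with the block; on day 14 (45 calls) 8, 191, 83 and 24 in the same order, and 7 after cyclic loess. Fits on only the arrays compared called 3 genes on day 3, 0 on day 14 and 3 among metformin days, and do not apply to the mean of days and the interaction. The causes were not tested.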
